A study of Mus musculus with 9 samples.

Results

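Genes of protein folding in the endoplasmic reticulum (ER) and of the unfolded protein response were measured in transferred CD8+ T cells on 9 arrays, 1 for each of 9 mice. The set holds 31 genes, chosen by name as chaperones, disulfide-forming enzymes, stress sensors, degradation factors and translocation channel subunits. Each of the 31 had exactly 1 probe set, out of 30704 genes tested. The probe set of Pdia4 also names the microRNA gene Mir704, and that of Manf also names Rbm15b, so the values of both are those of a shared probe set.

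The cells were pmel1 T cells, which carry a transgenic receptor for a peptide of the melanocyte protein gp100, and were marked by Thy1.1. They were placed in naive congenic recipients, which keep their own lymphocytes, and every recipient was given 100 µg of hgp100 peptide and 400 µg of antibody. The anti-CD27 group (3 mice) received 200 µg of AT124, an agonist of the costimulatory receptor CD27, with 200 µg of isotype control antibody. The anti-PD-1/L1 group (3 mice) received 100 µg of RMP1-14 against PD-1 and 100 µg of 10F.9G2 against PD-L1, which block an inhibitory pathway of T cells, with 200 µg of isotype control. The combination group (3 mice) received all of these antibodies at the same doses and no isotype control. Spleen cells were taken on day 4 from single mice and sorted for Thy1.1 and CD8. No sample had peptide with isotype control alone, so each comparison sets one treatment against another, and the age of the mice was not given.

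Secreted and membrane proteins enter the ER through the Sec61 channel, are folded by chaperones such as BiP and GRP94, and receive disulfide bonds from protein disulfide isomerases. When unfolded protein builds up, the sensors IRE1, ATF6 and PERK start the unfolded protein response, which raises chaperones and degradation factors and slows translation. IRE1 acts by splicing the messenger RNA of Xbp1, a step that a level per gene does not show. Activated CD8+ T cells make large amounts of secreted and surface protein, and the IRE1 and XBP1 arm is known to be active in effector T cells.

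Values are log2 levels per probe set as deposited, and a level is compared between groups for 1 gene at a time, never between genes. The 10 measured T cell markers averaged 9.09 to 9.17 on the combination arrays and 9.23 to 9.24 on the anti-CD27 arrays, with 0 of 10 called by limma between these groups (1 at an unadjusted p under 0.05), and 8.31 to 8.73 on the anti-PD-1/L1 arrays. The 14 measured B cell and plasma cell markers, of interest because plasma cells are rich in ER chaperones, averaged 3.72 to 3.80, 3.76 to 3.77 and 3.96 to 4.01. Of these 14, 8 in anti-CD27, 9 in the combination and 8 in anti-PD-1/L1 had a group mean above the highest background control mean of that group. Jchain, Ms4a1 and Cd79a were below it in all groups, while Cd79b (5.40 to 5.73), Pou2af1 (5.75 to 6.09) and Irf4 (up to 6.17), the last of which activated T cells also make, were above it. The anti-PD-1/L1 arrays stood apart: positive control probe sets averaged 5.75 ± 0.19 (SD, n = 3) there, against 6.70 ± 0.02 in anti-CD27 and 6.81 ± 0.04 in the combination, and background control probe sets averaged 4.06 ± 0.08 against 3.27 ± 0.06 and 3.25 ± 0.04. Results for the combination against anti-CD27 therefore come first.

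**Figure D1:**
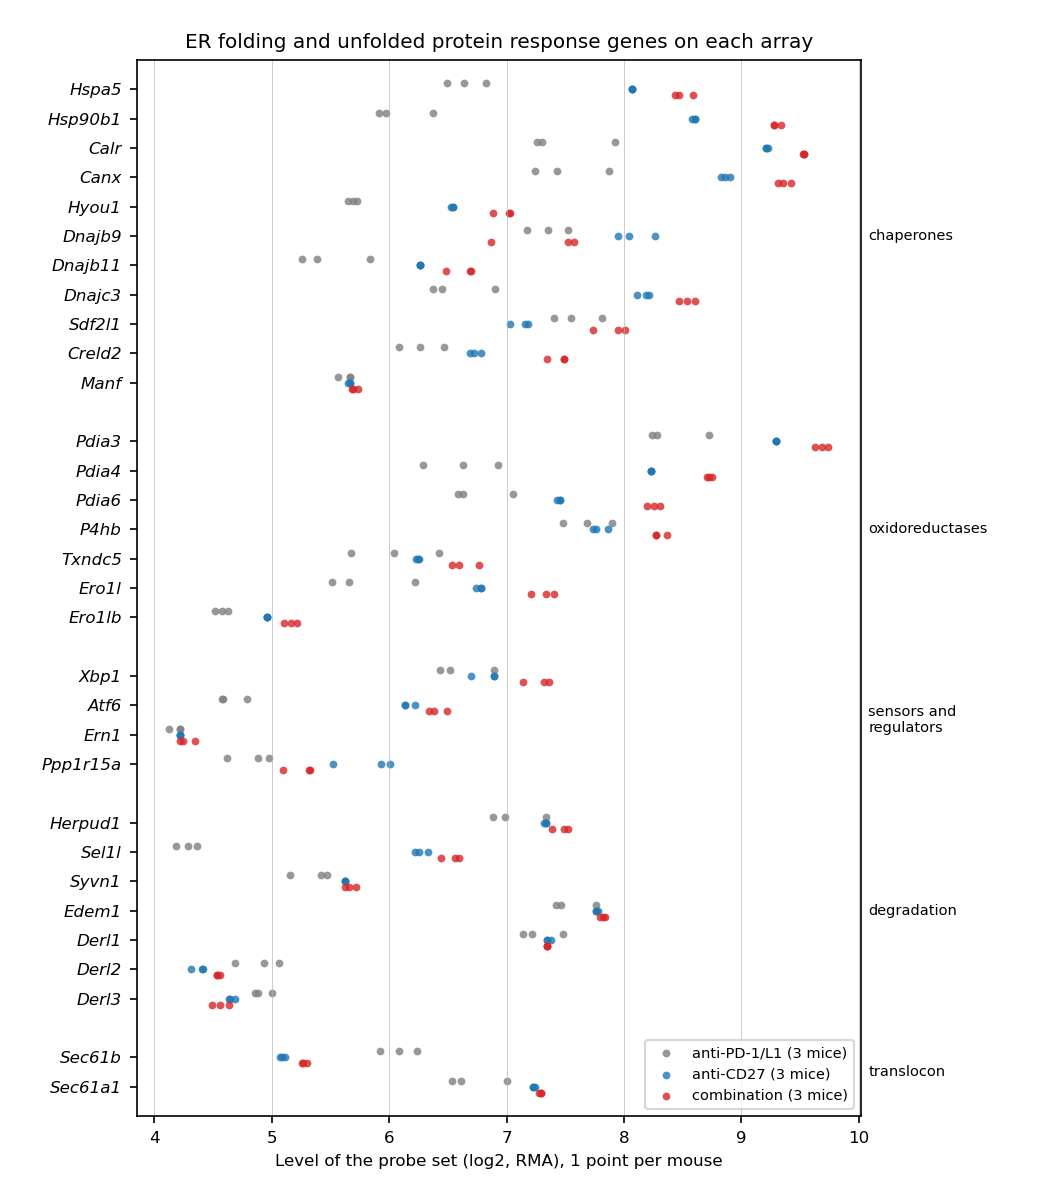
Log2 level of each of the 31 genes (rows, grouped by role) on each of the 9 arrays, with 1 point per mouse and the 3 groups in separate colours. For most chaperones and oxidoreductases the combination points lie to the right of the anti-CD27 points, while those of Dnajb9 and Ppp1r15a lie to the left.

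Setting the combination against anti-CD27 asks what adding the blocking antibodies did in mice given the CD27 agonist. Of the 31 genes, 7 rose in the combination, 0 fell and 24 did not pass, where 1.27% of all genes tested rose and 0.524% fell. Among the 12210 genes within the range of mean levels of the 31, 2.75% rose and 1.12% fell. The 7 were the chaperones and cofactors Hspa5, Hsp90b1, Hyou1, Sdf2l1 and Creld2 and the disulfide isomerases Pdia6 and P4hb, with rises from 1.35-fold to 1.75-fold. Chaperones accounted for 5 of 11, oxidoreductases for 2 of 7, and sensors (4 genes), degradation factors (7 genes) and translocon subunits (2 genes) for 0, with 3, 1 and 1 genes of these roles at an unadjusted p under 0.05. On 25 genes all 3 combination arrays were above all 3 anti-CD27 arrays, as on 12.1% of all genes and 23.0% of the 12210 genes within the same range of mean levels, and on 3 genes they were below (8.46% of all genes). The median difference of the 31 was 0.31 on the log2 scale, against -0.00 over all genes and 0.01 over genes of that range. In sorted bulk samples such as these, fewer cells of a type and less RNA per cell cannot be told apart.

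The number of calls depended on how the spread was estimated and on single arrays. With the 6 arrays of these groups alone, 18 rose (3.99% of all genes), and with a weight for each group 20 rose and 2 fell (5.20% and 1.99%). Without replicate 1 of anti-PD-1/L1, whose arrays enter through the shared spread, 16 rose (3.07% of all genes). Leaving out anti-CD27 replicate 1 (0.443%), anti-CD27 replicate 2 (0.462%) or combination replicate 2 (0.541%) left 1 gene called, Hyou1 each time. Leaving out combination replicate 1 (0.655%) or combination replicate 3 (0.723%) left 4 and 3 genes. Without replicate 3 of anti-CD27, 4 rose (0.684%) and Ppp1r15a fell (0.270%). Hyou1 was called without each of the 9 arrays in turn. Many levels were equal to 6 decimals within a group: all 3 anti-CD27 arrays of Dnajb11, Pdia3, Pdia4, Ern1 and Syvn1, and all 3 combination arrays of Derl1. Some values also recurred between groups, here compared to 4 decimals. The anti-CD27 value of Ern1 (4.2211) recurred on anti-PD-1/L1 replicates 1 and 3 and combination replicate 1, and that of Syvn1 (5.6269) on combination replicate 3. The combination value of Derl1 (7.3447) recurred on anti-CD27 replicates 1 and 2. The differences given below for these genes include such repeated values. Over all genes 8.57% were equal on the 3 anti-CD27 arrays, 5.49% on the combination arrays and 0.713% on the anti-PD-1/L1 arrays. At least 2 of the 3 anti-CD27 values were equal for 18 of the 31 (58.1%, against 33.4% of all genes), among them 4 of the 7 genes that rose: Hspa5, Hsp90b1, Hyou1 and Pdia6. Equal values may understate the spread between mice. Neither that nor their part in the calls was tested. Positive control probe sets were higher on every combination array (6.76 to 6.83) than on any anti-CD27 array (6.68 to 6.72). Negative control probe sets were lower on every combination array (2.707 to 2.847) than on any anti-CD27 array (2.853 to 2.968). The SD over genes was wider on every combination array (2.24 to 2.25) than on any anti-CD27 array (2.21 to 2.23). The part of these differences in the calls was not tested.

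**Figure D2:**
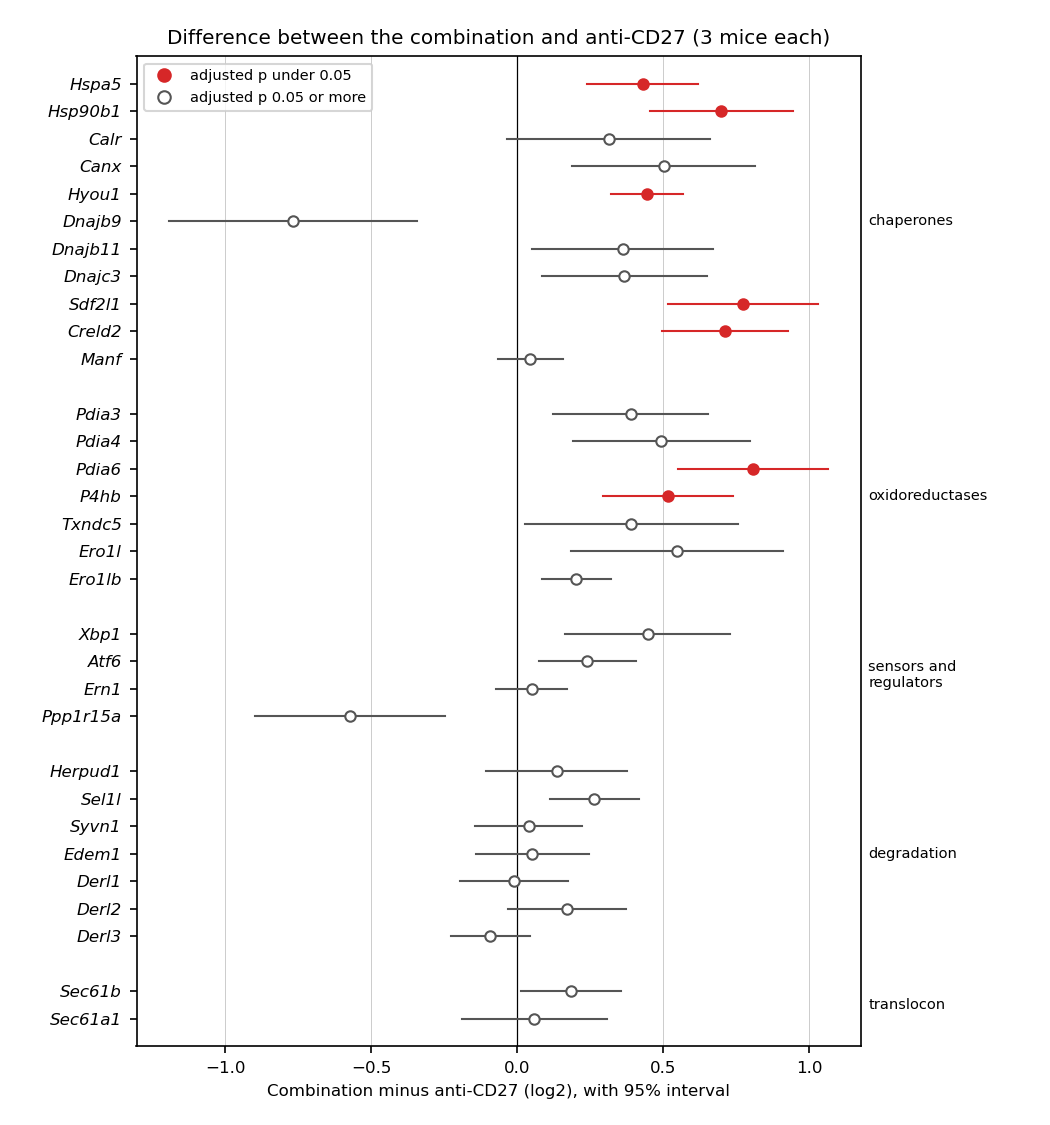
Combination minus anti-CD27 for each gene on the log2 scale (points) with the 95% interval of limma's fit (lines), filled where the adjusted p was under 0.05. The 7 filled points lie between 0.43 and 0.81, and Dnajb9 and Ppp1r15a lie at -0.77 and -0.57.

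Among the chaperones, Hspa5, which encodes BiP, the main Hsp70 chaperone of the ER and the keeper of the stress sensors, was at 8.47, 8.58 and 8.44 in the combination, 8.07 on each of the anti-CD27 arrays, and 6.82, 6.64 and 6.49 in anti-PD-1/L1. The 3 groups did not overlap. Hspa5 rose 1.35-fold over anti-CD27 (log2 difference 0.43 ± 0.08, limma SE, adjusted p = 0.0426), and the call held when anti-PD-1/L1 replicate 1 or 3 was left out but not when any of the other 7 arrays was (adjusted p up to 0.172). It was also lost with centred arrays, with a trended and robust variance prior, with all transcript probe sets tested and with the replicate number as a block (adjusted p from 0.0585 to 0.0829). Hsp90b1, the ER Hsp90 known as GRP94, was at 9.28, 9.34 and 9.28 against 8.61, 8.58 and 8.61, and at 6.37, 5.97 and 5.91 in anti-PD-1/L1. It rose 1.62-fold (0.70 ± 0.11, adjusted p = 0.0159), a call lost when any of the 6 arrays compared was left out (adjusted p up to 0.0826). Hyou1, an exchange factor and holdase that works beside BiP, was at 6.89, 7.03 and 7.02 against 6.54, 6.54 and 6.52, and at 5.69, 5.72 and 5.65 in anti-PD-1/L1. Hyou1 rose 1.36-fold (0.44 ± 0.05, adjusted p = 0.00683), and its adjusted p was at most 0.0447 when any 1 array was left out.

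Sdf2l1, which partners ER Hsp40 proteins, had 7.74, 7.95 and 8.01 in the combination and 7.03, 7.16 and 7.18 in anti-CD27. Its rise of 1.71-fold (0.77 ± 0.11, adjusted p = 0.013) did not hold when anti-CD27 replicate 1, anti-CD27 replicate 2, combination replicate 2 or combination replicate 3 was absent (adjusted p up to 0.0748). Sdf2l1 also differed from the other chaperones in its anti-PD-1/L1 levels of 7.82, 7.40 and 7.55, all above the anti-CD27 arrays. Creld2, an ER stress-inducible protein with disulfide isomerase activity, had 7.35, 7.49 and 7.49 against 6.68, 6.72 and 6.78, and 6.47, 6.26 and 6.08 in anti-PD-1/L1. Creld2 rose 1.64-fold (0.71 ± 0.09, adjusted p = 0.00923), which did not hold when any of the 3 arrays that leave Hyou1 alone was absent (adjusted p up to 0.0547).

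The lectin chaperones Calr and Canx hold newly made glycoproteins, MHC class I among them. Canx was at 9.36, 9.42 and 9.31 in the combination against 8.83, 8.86 and 8.90, a difference of 0.50 ± 0.14 that did not pass (adjusted p = 0.154). Calr was at 9.53, 9.52 and 9.53 against 9.21, 9.23 and 9.21 (0.31 ± 0.15, adjusted p = 0.616). On both genes the groups did not overlap, and both passed with the 6 arrays alone. The difference was 0.36 for Dnajb11 and 0.37 for Dnajc3, Hsp40 cochaperones of BiP, with no overlap and no call, and 0.04 for Manf, a small stress-induced ER protein, with a 95% interval from -0.07 to 0.15.

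Dnajb9, which encodes ERdj4, an Hsp40 protein that brings BiP to IRE1 and is a textbook target of spliced XBP1, went the other way. It was at 7.52, 7.57 and 6.86 in the combination, 8.26, 8.04 and 7.95 in anti-CD27, and 7.52, 7.35 and 7.17 in anti-PD-1/L1. Each combination array was below each anti-CD27 array, with replicate 3 of the combination the lowest of the 9. The difference of -0.77 ± 0.19 did not pass (adjusted p = 0.0989), but did after quantile normalization and with group weights.

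Short promoter stretches are shown for members that rose and for some that did not, because chaperone promoters are known to share the ER stress response element (ERSE) bound by ATF6 and XBP1. RefSeq windows (GRCm38.p6, 250 bases before to 50 after the start) were held for 26 of the 31 genes, and not used for Hyou1, Manf, Atf6, Derl1 and Sec61a1. ERSE was searched as CCAAT, any 9 bases and CCACG, and ERSE-II as ATTGG, any 1 base and CCACG, on both strands, and no match of one overlapped a match of another in these genes. ERSE stood in 10 of the 26 genes (38.5%) and in 0.137% of the 27025 genes of the table (0.119% of windows). The element was first defined on promoters of such chaperones, so its presence in these genes is no independent finding. Capitals mark the match, which on the reverse strand reads CGTGG, 9 bases, ATTGG. The stretches lie at chr2:34772010-34772058 (plus strand) for Hspa5, chr10:86705518-86705566 (minus) for Hsp90b1, chr15:88819505-88819553 (plus) for Creld2, chr12:17266476-17266524 (plus) for Pdia6, chr19:6046517-6046565 (plus) for Syvn1 and chr10:75893227-75893275 (plus) for Derl3, each printed 5′ to 3′ on the strand of its gene.
Hspa5: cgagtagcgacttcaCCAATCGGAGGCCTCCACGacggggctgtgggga
Hsp90b1: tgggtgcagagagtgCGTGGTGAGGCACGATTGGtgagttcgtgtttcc
Creld2: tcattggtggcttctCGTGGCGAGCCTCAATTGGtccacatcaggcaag
Pdia6: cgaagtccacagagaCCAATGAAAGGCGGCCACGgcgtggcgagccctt
Syvn1: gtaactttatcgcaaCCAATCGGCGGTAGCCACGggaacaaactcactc
Derl3: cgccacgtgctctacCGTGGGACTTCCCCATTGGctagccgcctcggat

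The first 4 of these genes rose in the combination, while Syvn1 and Derl3, with matches of the same kind, differed by 0.04 and -0.09 and did not pass. Of the 10 genes with ERSE, 4 rose, 8 had combination arrays above all anti-CD27 arrays, and the median difference was 0.40. Of the 14 with a window and neither ERSE nor ERSE-II, 2 rose (Sdf2l1 and P4hb), 11 had combination arrays above, and the median was 0.33. In the whole set of 31, 7 rose and 25 had combination arrays above. Over all genes tested 1.27% rose and 12.1% had combination arrays above, and 23.0% did among genes within the range of mean levels. ERSE-II stood in Dnajb11 and Herpud1, the UPRE core TGACGTGG stood in Txndc5 (0.714% of all genes), and the amino acid response element TGATGCAAT in none of the 26 (0.222% of all genes). These are counts of letters in a window and were not tested against the response.

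**Figure D3:**
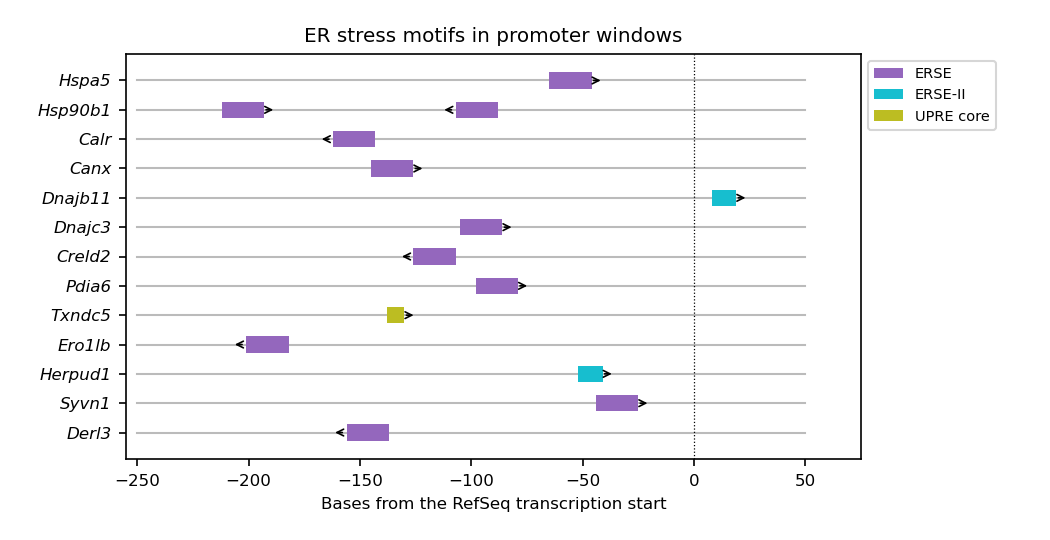
Position of each match (bars) in the RefSeq promoter window of 13 genes, in bases from the transcription start, with arrows for the strand of the match. Hsp90b1 has 2 ERSE matches, at -212 to -194 and -107 to -89, and of the 14 matches only that of Dnajb11 lies after it, at 8 to 18 bases.

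Among the oxidoreductases, Pdia6, a disulfide isomerase that also acts on IRE1, was at 8.19, 8.31 and 8.25 in the combination, 7.43, 7.45 and 7.45 in anti-CD27, and 7.05, 6.63 and 6.59 in anti-PD-1/L1. Pdia6 rose 1.75-fold (0.81 ± 0.11, adjusted p = 0.0104), with the same 3 arrays each ending the call (adjusted p up to 0.0618). P4hb, the founding protein disulfide isomerase, was at 8.27, 8.27 and 8.36 against 7.74, 7.76 and 7.86. P4hb rose 1.43-fold (0.52 ± 0.10, adjusted p = 0.0399), and passed when anti-PD-1/L1 replicate 1 or 2 was left out but not when any of the other 7 arrays was (adjusted p up to 0.18). It was also lost with the positive control covariate, with a trended and robust variance prior, with all transcript probe sets tested and with the replicate number as a block (adjusted p from 0.0569 to 0.0742). Its anti-PD-1/L1 levels of 7.90, 7.48 and 7.68 overlapped those of anti-CD27.

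The other 5 oxidoreductases were also above on every combination array, without passing. Ero1l, the oxidase that reloads the isomerases and now named Ero1a, was at 7.41, 7.34 and 7.20 against 6.79, 6.74 and 6.79 (0.55 ± 0.16, adjusted p = 0.183). The shared probe set of Pdia4, an isomerase with additional thioredoxin domains, was at 8.70, 8.75 and 8.72 against 8.23 on each anti-CD27 array (0.49 ± 0.13, adjusted p = 0.144). Pdia3, which works with calnexin and calreticulin, differed by 0.39 (adjusted p = 0.208), Txndc5 by 0.39 (adjusted p = 0.45) and Ero1lb, the second oxidase, by 0.20 (adjusted p = 0.123).

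Of the 4 sensors and regulators, 0 were called between the combination and anti-CD27 by limma, and 3 had an unadjusted p under 0.05. Xbp1, the transcription factor made after splicing by IRE1, was at 7.32, 7.36 and 7.14 against 6.69, 6.89 and 6.89 (0.45 ± 0.12, adjusted p = 0.157, 95% interval 0.16 to 0.73), with no overlap. Atf6, the sensor released by cleavage in the Golgi, was at 6.49, 6.34 and 6.38 against 6.14, 6.14 and 6.22 (0.24 ± 0.07, adjusted p = 0.208). Ern1, which encodes IRE1, was at 4.22, 4.25 and 4.35 against 4.22 on each anti-CD27 array, a difference of 0.05 with a 95% interval from -0.07 to 0.17. In anti-PD-1/L1 its lowest array (4.13) was below the highest mean of the background controls there (4.16).

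Ppp1r15a encodes GADD34, the phosphatase subunit that restores translation after PERK has acted, and was lower in the combination. It was at 5.31, 5.33 and 5.09, against 6.01, 5.93 and 5.52 in anti-CD27 and 4.88, 4.97 and 4.62 in anti-PD-1/L1. The 3 groups did not overlap. The difference of -0.57 ± 0.14 from anti-CD27 did not pass (adjusted p = 0.111, 95% interval -0.90 to -0.25), but did without replicate 3 of anti-CD27 (adjusted p = 0.0458) and with group weights.

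In degradation, 0 of 7 were called by limma (1 at an unadjusted p under 0.05), with a median difference of 0.05. Sel1l, the scaffold of the HRD1 ubiquitin ligase, was at 6.60, 6.56 and 6.44 in the combination against 6.33, 6.22 and 6.26 (0.26 ± 0.07, adjusted p = 0.117). Syvn1, which encodes HRD1 itself, was at 5.65, 5.72 and 5.63 against 5.63 on each anti-CD27 array, and Herpud1, which assembles that complex, at 7.48, 7.52 and 7.39 against 7.33, 7.33 and 7.32. Their 95% intervals reached from -0.14 to 0.22 and from -0.11 to 0.38. Edem1, a mannosidase-like lectin, and the derlins Derl1, Derl2 and Derl3 of the membrane channel differed by 0.05, -0.01, 0.17 and -0.09. In the Sec61 channel, Sec61b was at 5.26, 5.26 and 5.30 against 5.09, 5.11 and 5.07 (0.18 ± 0.08, adjusted p = 0.446), and Sec61a1 at 7.28, 7.30 and 7.29 against 7.24, 7.22 and 7.22 (0.06 ± 0.11, adjusted p = 1).

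Beyond the 31, calls between the combination and anti-CD27 were also counted in lists of neighbouring pathway genes. Over all genes tested 1.27% rose and 0.524% fell, shares that apply to this paragraph and the next. In the oligosaccharyltransferase, which attaches glycans to entering proteins, 1 of 11 rose, Magt1 by 0.68 ± 0.13 (adjusted p = 0.0368), and the list's median was 0.26. In translocation and signal peptide handling 1 of 21 rose, the signal recognition particle subunit Srp68 by 0.34 ± 0.06 (adjusted p = 0.0285), and in vesicle export and retrieval 1 of 24, the cargo receptor Lman1 by 0.38 ± 0.06 (adjusted p = 0.0197). The medians of these lists were 0.14 and 0.11. Among other ER chaperones and cochaperones 1 of 29 fell, Ppic, a cyclophilin, by 0.69 ± 0.12 (adjusted p = 0.0233), with a median of 0.02.

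Of 19 other oxidoreductases 0 were called by limma (4 at an unadjusted p under 0.05), and of 26 other degradation genes 0 (0 at an unadjusted p under 0.05), with medians of 0.02 and -0.00, and the largest differences were 0.34 for the peroxiredoxin Prdx4 (adjusted p = 0.183) and 0.31 for the ATPase Vcp (adjusted p = 0.667). Of 17 other stress transducers and their targets 0 were called by limma (2 at an unadjusted p under 0.05), with a median of -0.02. The largest difference was in Ddit3, which encodes CHOP, a factor induced downstream of PERK, at -0.31 ± 0.07 (adjusted p = 0.0648). Among 12 chaperones of the cytosol 2 rose, Stip1, which links Hsp70 to Hsp90, by 0.63 ± 0.06 (adjusted p = 0.00243), and Hsph1, an Hsp110, by 0.72 ± 0.14 (adjusted p = 0.0441). Of 14 B cell and plasma cell markers 1 passed the test, Prdm1 (adjusted p = 0.0336), which encodes Blimp-1 and which effector T cells also make. Prdm1 was at 2.94, 2.92 and 2.76 in anti-CD27, below the background control means there (3.20 to 3.32), and at 3.15, 3.41 and 3.38 in the combination, so no size is given for its difference. Of 14 myeloid and dendritic cell markers 1 rose, the integrin Itgam, by 0.61 ± 0.05 (adjusted p = 0.00102), and of 8 markers of other lymphocytes and 6 of red cells 0 were called by limma, with 1 and 0 at an unadjusted p under 0.05. The part of such cells in the results was not tested.

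The comparisons with anti-PD-1/L1 ask what CD27 agonism added to blockade, and how the single treatments differed, and both are limited by the arrays that stood apart. Of all genes, 19.0% were called higher and 53.3% lower in the combination than in anti-PD-1/L1, with a median difference of -0.26. Between the single treatments, as anti-CD27 minus anti-PD-1/L1, these values were 17.2%, 53.6% and -0.26. Of the 31 genes, 24 were called higher and 3 lower in the combination, with a median of 0.62, and 20 higher and 4 lower in anti-CD27, with a median of 0.51. Genes within the same range of mean levels were called higher in 42.0% and lower in 34.5% in the first comparison, and in 38.2% and 35.1% in the second. When the positive control level of each array was added to the model, 3 of the 31 were higher and 1 lower in the combination (2.92% and 3.34% of all genes), with a median of -0.14. In anti-CD27 2 were higher and 2 lower (3.54% and 4.35%), with a median of -0.40. By role, 9 of 11 chaperones, 7 of 7 oxidoreductases, 3 of 4 sensors, 4 of 7 degradation factors and 1 of 2 translocon subunits were called higher in the combination as deposited, and 9, 5, 2, 3 and 1 in anti-CD27. Group and control level moved together, so the treatment and the state of the arrays cannot be told apart in these comparisons.

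Side by side, the differences from anti-PD-1/L1 were 3.21 ± 0.11 in the combination and 2.52 ± 0.11 in anti-CD27 for Hsp90b1, the widest of the 31 in both. Both comparisons use the same 3 anti-PD-1/L1 arrays. For Sel1l, at 4.29, 4.36 and 4.19 in anti-PD-1/L1, they were 2.25 ± 0.07 and 1.99 ± 0.07. The lowest of these Sel1l arrays (4.19) was close to the highest mean of the background controls there (4.16), which limits the size of its differences. With the control covariate Hsp90b1 and Sel1l still passed, at 1.87 and 1.30 for Hsp90b1 and at 1.96 and 1.73 for Sel1l. Atf6 was at 4.79, 4.58 and 4.59 in anti-PD-1/L1, 1.75 ± 0.07 and 1.51 ± 0.07 below the other groups, and did not pass with the covariate (1.11, adjusted p = 0.0515, and 0.94, adjusted p = 0.0557).

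Both lectins and 5 of 7 oxidoreductases were called higher in both comparisons, while P4hb and Txndc5 overlapped between anti-CD27 and anti-PD-1/L1 (0.10, adjusted p = 0.371, and 0.20, adjusted p = 0.289). Calr was at 7.92, 7.30 and 7.26 there, with differences of 2.04 ± 0.15 and 1.73 ± 0.15, and Pdia4 at 6.93, 6.63 and 6.29, with differences of 2.11 ± 0.13 and 1.62 ± 0.13. Ero1l was at 6.22, 5.66 and 5.51 (1.52 ± 0.16 and 0.97 ± 0.16) and Canx at 7.87, 7.42 and 7.24 (1.85 ± 0.14 and 1.35 ± 0.14). Each passed in both comparisons as deposited, while with the control covariate the values were 0.11 and -0.01 for Calr and -0.60 and -0.93 for Ero1l. With the covariate Ero1l was thus called lower in anti-CD27 than in anti-PD-1/L1 (adjusted p = 0.0322), and Herpud1 was called lower in both comparisons (-0.95 in each, adjusted p = 0.0381 and 0.0262). Xbp1 overlapped between anti-CD27 and anti-PD-1/L1 (6.89, 6.43 and 6.52), at 0.21 ± 0.12 (adjusted p = 0.152), and was 0.66 ± 0.12 higher in the combination (adjusted p = 0.00136). The latter call was lost after quantile normalization and with the covariate (-0.59, adjusted p = 0.435).

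Some members ran against the others. Sec61b, the small beta subunit of the channel, was at 5.92, 6.08 and 6.23 in anti-PD-1/L1, above every other array, with differences of -0.81 ± 0.08 in the combination (adjusted p = 2.71e-05) and -0.99 ± 0.08 in anti-CD27 (adjusted p = 1.09e-05). With the control covariate these were 0.04 and -0.23 and did not pass. Sec61a1, which forms the pore, went the other way, at 7.01, 6.53 and 6.61 in anti-PD-1/L1 (0.57 ± 0.11 and 0.51 ± 0.11), but after quantile normalization it was not called (0.14 and 0.12). Derl2 was at 4.93, 4.69 and 5.07 in anti-PD-1/L1, against 4.54, 4.54 and 4.56 in the combination and 4.41, 4.31 and 4.41 in anti-CD27 (-0.35 ± 0.09 and -0.52 ± 0.09). Derl3 differed by -0.35 and -0.26. With each array centred on the median of all genes neither derlin was called, at 0.03 and -0.15 for Derl2 and 0.03 and 0.11 for Derl3. Sdf2l1 was called lower in anti-CD27 than in anti-PD-1/L1 (-0.46 ± 0.11, adjusted p = 0.00577), and not with centred arrays (-0.10). In the combination it was called higher (0.31 ± 0.11, adjusted p = 0.0344), a call lost without replicate 2 or 3 of either group (adjusted p up to 0.112) and reversed in sign after quantile normalization (-0.11). Ppp1r15a was 0.99 ± 0.14 higher in anti-CD27 than in anti-PD-1/L1 (adjusted p = 0.000316) and 0.42 ± 0.14 higher in the combination (adjusted p = 0.0262), the latter lost when anti-PD-1/L1 replicate 3, combination replicate 1 or combination replicate 2 was left out (adjusted p up to 0.0909). With the control covariate Sec61a1, Derl2, Derl3, Sdf2l1 and Ppp1r15a were not called in either comparison with anti-PD-1/L1.

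Other genes of the pathway were also called in large numbers against anti-PD-1/L1, as was the background. Over all genes tested, 19.0% were called higher and 53.3% lower in the combination, and 17.2% and 53.6% in anti-CD27. Other ER chaperones were called in equal numbers each way in the combination, 10 of 29 higher and 10 lower, as were other oxidoreductases, 7 of 19 and 7. In anti-CD27 these lists had 8 higher and 9 lower, with a median of -0.08, and 5 higher and 7 lower, with a median of -0.16. In the combination 8 of 17 stress transducers and targets were higher and 7 lower, 7 of 11 oligosaccharyltransferase genes were higher and 1 lower, 16 of 24 export and retrieval genes were higher and 2 lower, 7 of 12 cytosolic chaperones were higher and 3 lower, 10 of 21 translocation genes were higher and 3 lower, and 13 of 26 other degradation genes were higher and 3 lower. In anti-CD27 the counts were 7 and 6, 7 and 2, 13 and 3, 7 and 4, 7 and 4, and 11 and 3.

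**Figure D4:**
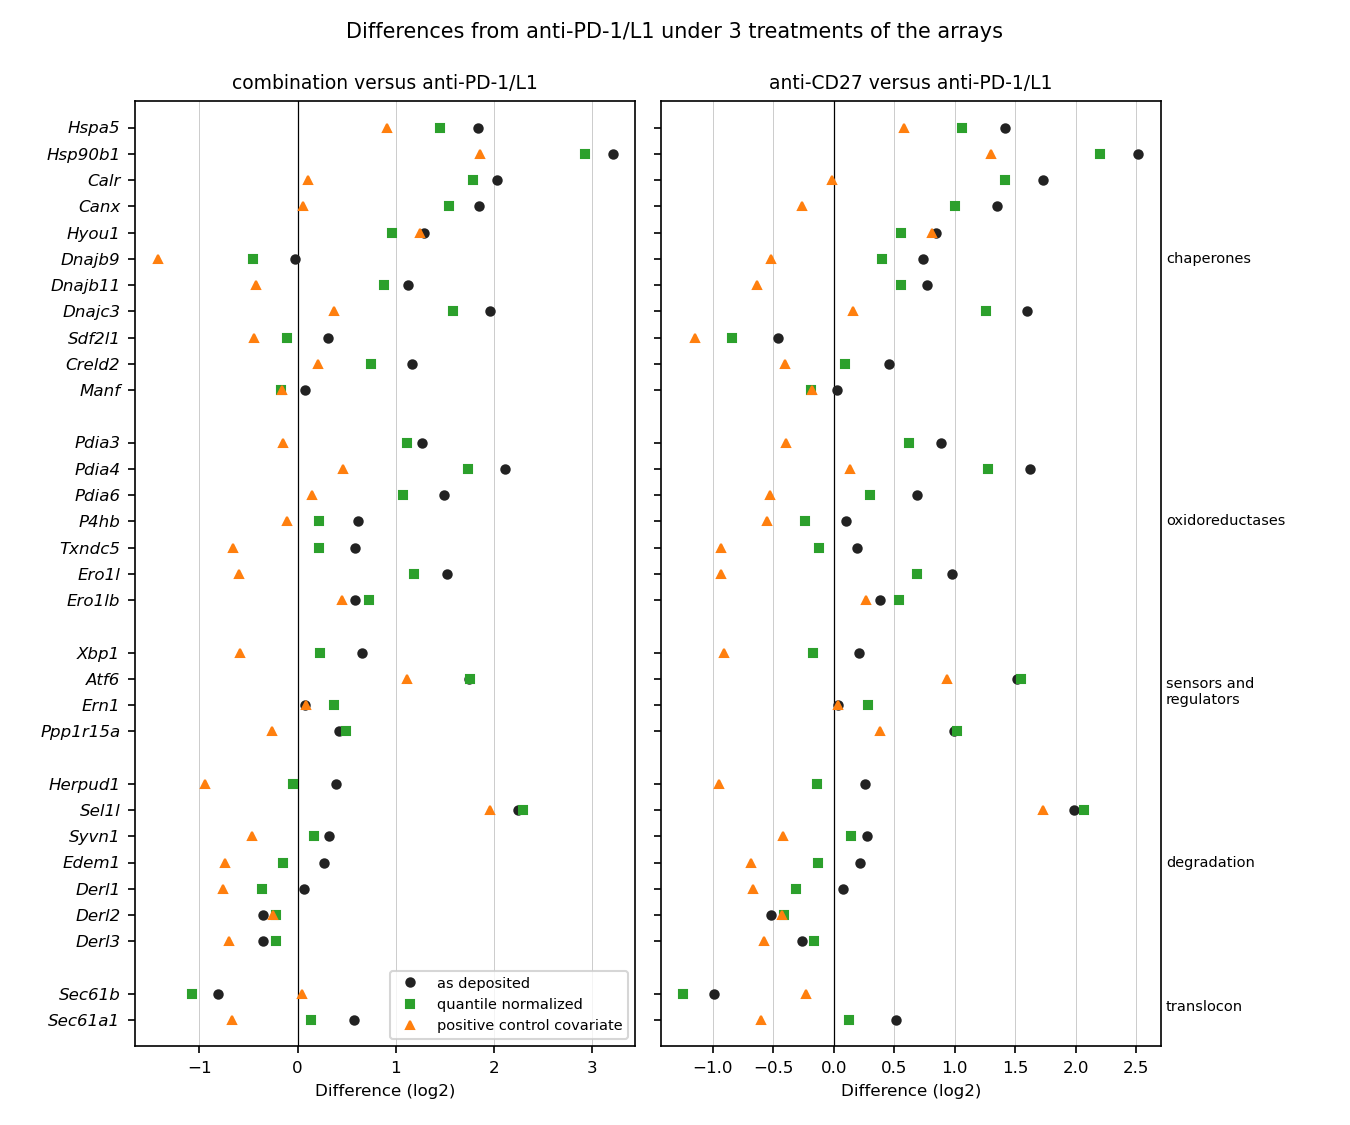
Differences from anti-PD-1/L1 (log2) for each gene in the combination (left) and anti-CD27 (right), as deposited (circles), after quantile normalization (squares) and with the positive control covariate (triangles). Hsp90b1 and Sel1l stay right of 0 under all 3, while Ero1l moves from 1.52 and 0.97 to -0.60 and -0.93 with the covariate.

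By mean level, 24 of the 31 genes were lowest in anti-PD-1/L1, intermediate in anti-CD27 and highest in the combination. The 7 others were Sdf2l1, lowest in anti-CD27, Derl2 and Sec61b, highest in anti-PD-1/L1 and lowest in anti-CD27, Derl1 and Ppp1r15a, highest in anti-CD27 and lowest in anti-PD-1/L1, Derl3, highest in anti-PD-1/L1 and lowest in the combination, and Dnajb9, lowest in the combination and highest in anti-CD27. Neighbours in these orders did not differ past the test for many genes, as given above. Over all genes 26.0% had a higher mean in anti-CD27 than in anti-PD-1/L1, and 47.7% a higher one in the combination than in anti-CD27. In the range of mean levels of the 31 these shares were 51.8% and 52.4%. The share of all genes in the order of the 24 was not counted. The place of anti-PD-1/L1 is limited by the arrays that stood apart. With the control covariate the median differences of the 31 from anti-PD-1/L1 were -0.14 in the combination and -0.40 in anti-CD27.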

How the data were processed

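RNA of sorted CD8+ Thy1.1+ T cells from 9 mice was hybridised to 1 whole-transcript array each. The authors deposited log2 levels per probe set. The submitters' processing notes name RMA and oligo 1.38.0, a method that subtracts background, brings arrays to one distribution and joins the probes of a set. The deposited levels nevertheless differed in distribution over the genes tested. Array medians were 3.94 to 4.00 in anti-PD-1/L1, 3.59 to 3.63 in anti-CD27 and 3.57 to 3.62 in the combination. The SDs were 2.00 to 2.09, 2.21 to 2.23 and 2.24 to 2.25. The genome build of the probe sets is not given in the sources used here. Of 65956 transcript probe sets, 31258 named 1 gene, 1492 several and 33206 none, by the platform's annotation with symbols updated through RefSeq. Where a gene had several probe sets, that of highest mean level was taken, a rule that changed nothing for these 31 genes, which had 1 each, and no filter on low values was applied.

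Differences were tested two-sided with limma 3.58.1 in R 4.3.3, with 1 mean per group over all 9 arrays (6 residual degrees of freedom) and Benjamini-Hochberg adjustment over 30704 genes. A gene "rose", "fell" or was called at an adjusted p under 0.05. "Differed" alone gives the size only. The test was checked on simulated data. These held no equal values within a group and no shift of whole arrays, so the check does not bear on those features. Errors are SD for levels and limma's SE for differences. The number of arrays, 3 per group, limits the precision, and an exact permutation test of 3 against 3 cannot go below 0.1. The members, the lists and the comparisons were chosen with earlier results of these data known.

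Values on every array are given for genes called between the combination and anti-CD27, the 12 with the largest difference there, up to 2 per role with the largest difference among those called in both comparisons with anti-PD-1/L1, and a set of regulators whatever their values. From each list of other genes, up to 3 called genes are named, or else the one with the largest difference. Promoter windows are from RefSeq (GRCm38.p6), and protein sequences were not used here. Alternatives covered normalization, centring, a low-level filter, a control covariate, the arrays fitted, weights, the variance prior, the choice of probe sets, a replicate block and each array left out.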

Additional observations from a re-analysis of the deposited data

How the results depend on the processing

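Between the combination and anti-CD27 the count of the 31 genes called was 18 with the 6 arrays alone (5.39% of all genes) and 22 with group weights (7.2%). It was 1 to 16 when 1 array was left out (0.567% to 4% of all genes). The median difference of the 31 was 0.21 with the control covariate, and no gene called as deposited changed sign. Against anti-PD-1/L1 the count in the combination was 4 with the covariate (6.26% of all genes), and the median was 0.49 after quantile normalization, 1.00 with centred arrays, -0.14 with the covariate and 0.57 to 0.77 with 1 array left out. For anti-CD27 these values were 4 (7.89% of all genes), 0.30, 0.88, -0.40 and 0.45 to 0.66. In the combination against anti-PD-1/L1, signs reversed after quantile normalization for Sdf2l1 (-0.11), Manf (-0.16), Herpud1 (-0.042), Edem1 (-0.15) and Derl1 (-0.36), with centring for Derl2 (0.028) and Derl3 (0.027), and with the covariate for Dnajb11 (-0.43), Sdf2l1 (-0.44), Pdia3 (-0.14), P4hb (-0.11), Txndc5 (-0.66), Ero1l (-0.60), Xbp1 (-0.59), Ppp1r15a (-0.26), Herpud1 (-0.95), Syvn1 (-0.46), Edem1 (-0.74), Sec61b (0.042) and Sec61a1 (-0.66). In anti-CD27 against anti-PD-1/L1 they reversed after quantile normalization for Manf (-0.19), P4hb (-0.24), Edem1 (-0.13) and Derl1 (-0.31), with centring for Derl3 (0.11), and with the covariate for Calr (-0.012), Canx (-0.27), Dnajb9 (-0.52), Dnajb11 (-0.63), Creld2 (-0.40), Pdia3 (-0.39), Pdia6 (-0.53), Ero1l (-0.93), Herpud1 (-0.95), Syvn1 (-0.42), Edem1 (-0.69) and Sec61a1 (-0.60). The cause was not tested. Deviations from group means had r from -0.196 to 0.161 between same-numbered samples and from -0.178 to 0.157 between differently numbered ones. With 3 arrays per group this check cannot decide whether the numbers pair the mice. With the replicate number as a block, 7, 26 and 25 of the 31 genes were called in the 3 comparisons. Over all genes tested these shares were 1.23%, 70.7% and 68.8%. Dnajb9 and Ppp1r15a were among the 7 as lower, while Hspa5 (adjusted p = 0.0750) and P4hb (adjusted p = 0.0709) were lost.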
